A study of Mus musculus with 24 samples.

Results

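Lgr5, Ascl2, Olfm4, Axin2, Smoc2, Sox9, Tnfrsf19, Rnf43 and Prom1 are genes of crypt stem cells and of the Wnt pathway that maintains them. They were taken as a named list, chosen with earlier results of these data known. Their levels were followed over 2 genotypes and 4 segments of the mouse intestine. Of the 9 listed genes, 8 had a probe set named by their gene number, 1 each, among the 15267 genes compared. Olfm4 was not analysed here. No filter on low values was applied, so all 8 measured genes entered every test.

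RNA came from male C57BL/6 mice aged 3 to 3.5 months that were either wild-type or Amacr-/-, a knockout of the gene for a racemase of bile acid and branched fatty acid metabolism. Each intestine had been divided into 4 segments of equal size, and the scraped inner layer of each was measured on 1 one-colour array, with 3 biological replicates in each of the 8 groups. The labels number the segments 1 to 4 without naming the end from which they were counted, and they do not say how the allele was made. In the text, differences between genotypes are Amacr-/- minus wild-type, and those between segments are the higher-numbered minus the lower-numbered segment.

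Intestinal crypts are pockets of the epithelium whose base holds stem cells that divide and renew the lining. Wnt ligands bind Frizzled and Lrp co-receptors on these cells, which stabilises beta-catenin, and beta-catenin with TCF/LEF factors turns on target genes. R-spondins strengthen this signal through Lgr receptors by removing the ubiquitin ligases Rnf43 and Znrf3, which otherwise take Frizzled off the cell surface.

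The labels call the scraped cells endothelial. Epcam and Vil1, which mark epithelium, were measured at 13.32 to 13.98 and 13.27 to 13.60 (log2) over the 24 arrays, whereas the vessel endothelium genes Pecam1 and Cdh5 were measured at 4.66 to 5.98 and 4.28 to 4.76. Values of the arrays ran from 2.92 to 14.74, so the defining endothelial genes lay in the low part of the range. Amacr itself was lower in all Amacr-/- groups, with log2 differences of -3.08 to -1.95. Its values reached at most 5.60 in the Amacr-/- arrays and were at least 6.96 in the wild-type arrays. Whether its probes lie in a deleted part is not known. Exocrine pancreas markers exceeded their average over the 24 arrays by 2.81 in wild-type segment 1 replicate 1 and by 1.40 in Amacr-/- segment 1 replicate 3. Fat markers did so by 1.95, 1.11 and 3.15 in wild-type segment 2 replicate 3, Amacr-/- segment 2 replicate 1 and Amacr-/- segment 3 replicate 3, and smooth muscle markers by 2.29 and 1.81 in the first 2 of these. Values without these 5 arrays are given beside each result of the 8 genes whose call they changed. In scraped tissue, fewer cells of a type and less RNA per cell cannot be told apart.

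Along the intestine, the measured Wnt feedback genes ran in opposite directions. Axin2 was 2.47-fold higher in segment 4 than in segment 1 of wild-type mice and 2.00-fold higher in Amacr-/- mice, while Rnf43 was 2.26-fold and 2.57-fold lower. Prom1 was 2.15-fold and 2.45-fold higher. Sox9, Lgr5 and Smoc2 were called higher in segment 4 of Amacr-/- mice alone, but a genotype difference that varied by segment was not called for any of the 8 genes. Ascl2 and Tnfrsf19 stayed within a narrow low range in every group.

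**Figure D1:**
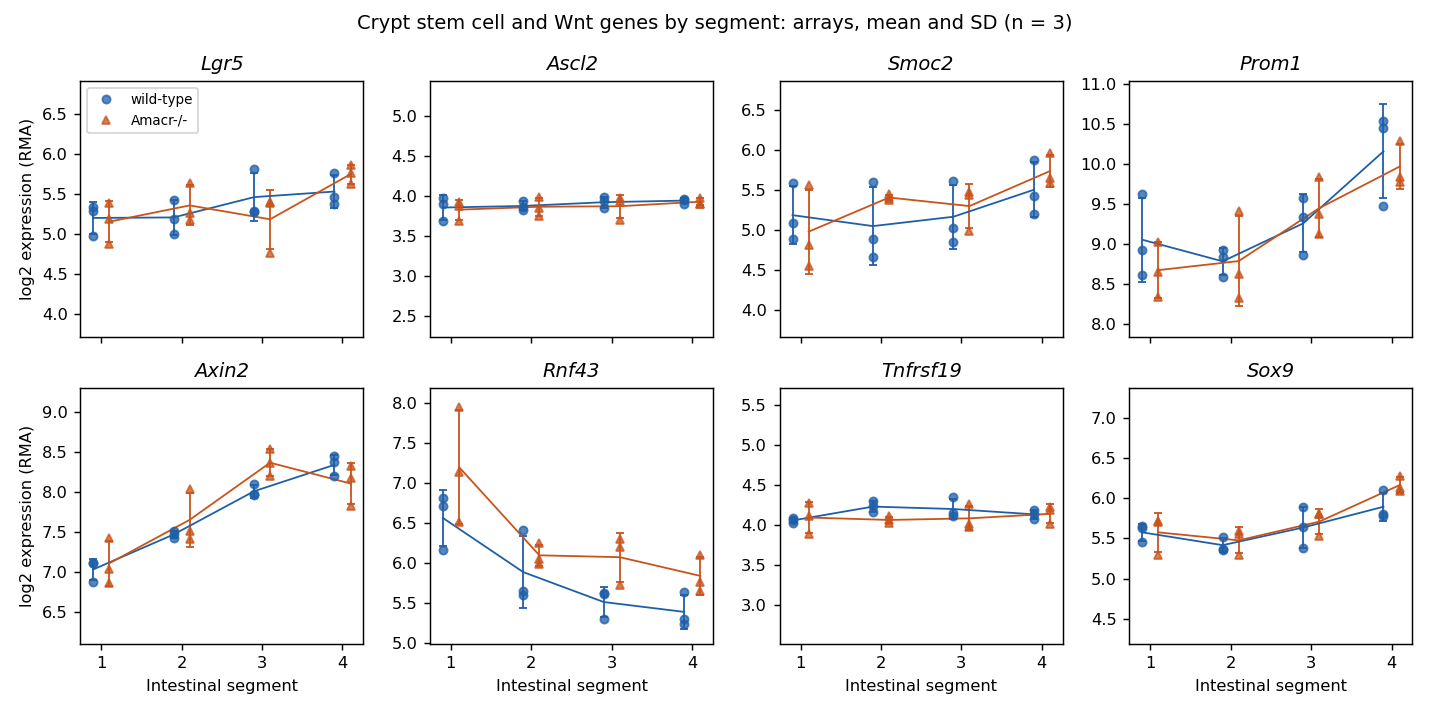
Log2 expression (y axis) of the 8 measured genes by intestinal segment (x axis), with each array as a point, the group mean joined by a line and the SD as bars (n = 3), in wild-type (circles) and Amacr-/- mice (triangles). Each panel spans the same height on the log2 scale. Axin2 climbs from about 7 to about 8, Rnf43 declines from segment 1 to segment 4 in both genotypes, and Ascl2 and Tnfrsf19 are flat.

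Axin2 encodes a scaffold of the complex that destroys beta-catenin, and it is itself a widely used Wnt target gene. In segment 1 its log2 levels were 7.11, 6.88 and 7.11 in the wild-type and 7.42, 7.04 and 6.87 in the Amacr-/- arrays. Segment 2 gave 7.51, 7.48 and 7.42 in the wild-type and 7.51, 8.04 and 7.41 in the Amacr-/- arrays. The wild-type arrays of segment 2 all lay above those of segment 1, while the Amacr-/- arrays of these segments overlapped. The rise was 0.44 (SE 0.16, limma adjusted p = 0.277) in wild-type and 0.54 (SE 0.16, limma adjusted p = 0.0630) in Amacr-/- mice, called in neither. The Amacr-/- rise passed without segment 1 replicate 1 (0.70, limma adjusted p = 0.0186) or segment 2 replicate 3 (0.665, limma adjusted p = 0.0402). In segment 3 the levels were 7.97, 8.10 and 7.96 in the wild-type and 8.20, 8.54 and 8.36 in the Amacr-/- arrays. Segment 4 gave 8.37, 8.45 and 8.20 against 8.17, 8.33 and 7.82. All 3 wild-type arrays of each segment lay above all those of the segment before, and the Amacr-/- mean peaked in segment 3. From segment 1 to segment 4 the change was 1.31 (SE 0.16, limma adjusted p = 3.77e-06) in wild-type and 1.00 (SE 0.16, limma adjusted p = 6.85e-05) in Amacr-/- mice. Every array of segment 4 exceeded every array of segment 1 across both genotypes.

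Rnf43 encodes the ubiquitin ligase that removes Frizzled receptors, a brake on Wnt signalling that is also induced by it. In segment 1 its log2 levels were 6.72, 6.17 and 6.81 in the wild-type and 6.52, 7.95 and 7.14 in the Amacr-/- arrays. Segment 2 gave 5.60, 6.41 and 5.66 against 5.99, 6.06 and 6.25. Segment 1 was thus the highest group of either genotype, with Amacr-/- replicate 2 the highest array. In segment 3 the levels were 5.30, 5.62 and 5.63 in the wild-type and 6.30, 5.73 and 6.20 in the Amacr-/- arrays. Segment 4 gave 5.24, 5.30 and 5.64 against 6.11, 5.77 and 5.65. In these last segments every Amacr-/- array lay above every wild-type array, in segment 4 by a narrow margin. From segment 1 to segment 4, Rnf43 fell by 1.17 (SE 0.28, limma adjusted p = 0.00378) in wild-type and fell by 1.36 (SE 0.28, limma adjusted p = 0.000811) in Amacr-/- mice. All 6 arrays of segment 4 lay below all 6 of segment 1. The fall in Rnf43 and the rise in Axin2 between these segments were called in each genotype under every alternative tried.

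Promoter sequences from RefSeq (GRCm38.p6) were found for 5 of the 8 genes, in 8 windows of the 250 bases before a transcript start. They are shown for Axin2 and Rnf43, whose levels ran in opposite directions, for Prom1, which moved with Axin2, and for the 1 Tnfrsf19 window with a motif match. Capitals mark a match to the TCF/LEF core, searched on both strands as CTTTG followed by AA, AT, TA or TT. A run of bases of that length matches at most 1 form, though neighbouring matches can share bases. Sequences read 5′ to 3′ along the gene's strand.
Axin2, chr11:108920099-108920348, plus strand: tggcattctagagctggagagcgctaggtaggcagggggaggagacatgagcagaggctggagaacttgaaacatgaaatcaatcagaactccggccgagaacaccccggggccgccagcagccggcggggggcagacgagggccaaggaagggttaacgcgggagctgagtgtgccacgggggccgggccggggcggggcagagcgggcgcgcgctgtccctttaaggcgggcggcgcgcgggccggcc
Rnf43, chr11:87662837-87663086, plus strand: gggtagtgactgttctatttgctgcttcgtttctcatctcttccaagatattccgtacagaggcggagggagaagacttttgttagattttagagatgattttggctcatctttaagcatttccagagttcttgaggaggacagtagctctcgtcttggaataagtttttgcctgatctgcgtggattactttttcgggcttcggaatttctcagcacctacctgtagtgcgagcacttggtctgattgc
Prom1, chr5:44101737-44101986, minus strand: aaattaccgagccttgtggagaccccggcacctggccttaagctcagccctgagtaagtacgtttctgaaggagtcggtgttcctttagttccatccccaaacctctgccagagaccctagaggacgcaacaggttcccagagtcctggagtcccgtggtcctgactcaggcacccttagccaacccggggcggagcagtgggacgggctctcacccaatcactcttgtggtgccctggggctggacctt
Tnfrsf19, chr14:61037988-61038237, minus strand: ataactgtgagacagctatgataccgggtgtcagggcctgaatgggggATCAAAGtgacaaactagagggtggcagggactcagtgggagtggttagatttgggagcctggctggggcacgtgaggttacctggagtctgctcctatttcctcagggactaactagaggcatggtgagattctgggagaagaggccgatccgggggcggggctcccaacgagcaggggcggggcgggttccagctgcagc
Of the 8 windows, 1 held a match, beside 14.8% of the 32851 windows of the same length in the table. The matching Tnfrsf19 window carries ATCAAAG, which reads as CTTTGAT on the opposite strand. The GC content was 69.2% in the Axin2 window, 59.2% and 50.8% in the 2 Prom1 windows, of which the first is shown, and 44.4% and 45.2% in the 2 Rnf43 windows, of which the first is shown. A match is a run of letters and not a shown binding site, and the windows leave out everything beyond these bases.

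Tnfrsf19, also called Troy, encodes a receptor of the tumour necrosis factor family that marks crypt stem cells and is a Wnt target. Its log2 levels lay between 3.89 and 4.35 in all 24 arrays, near the low end of the arrays' range. Segment 4 differed from segment 1 by 0.08 (95% interval -0.12 to 0.28) in wild-type and by 0.05 (95% interval -0.15 to 0.25) in Amacr-/- mice. No comparison called it. In segment 2 its 3 Amacr-/- arrays, at 4.03 to 4.11, lay below the wild-type arrays at 4.16 to 4.30, a difference of -0.17 (SE 0.10, limma adjusted p = 0.809).

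Prom1 encodes the membrane protein prominin-1 (CD133), present on crypt stem cells and on other crypt cells. In segment 1 its log2 levels were 9.63, 8.92 and 8.61 in the wild-type and 8.34, 9.03 and 8.65 in the Amacr-/- arrays. Segments 2 and 3 ran from 8.59 to 9.57 in the wild-type and from 8.33 to 9.84 in the Amacr-/- arrays. Segment 4 gave 10.54, 10.45 and 9.48 in the wild-type and 9.84, 10.29 and 9.77 in the Amacr-/- arrays. In Amacr-/- mice all 3 arrays of segment 4 lay above those of segment 1, whereas in wild-type mice replicate 1 of segment 1 lay above replicate 3 of segment 4. The rise from segment 1 to segment 4 was 1.10 (SE 0.32, limma adjusted p = 0.0150) in wild-type and 1.29 (SE 0.32, limma adjusted p = 0.00368) in Amacr-/- mice. The wild-type call was lost without segment 1 replicate 2 (1.04, limma adjusted p = 0.0529), segment 1 replicate 3 (0.88, limma adjusted p = 0.0940), segment 4 replicate 1 (0.91, limma adjusted p = 0.0805) or segment 4 replicate 2 (0.96, limma adjusted p = 0.0734). In the fit of the compared groups alone its adjusted p was 0.0635.

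Lgr5, the receptor for R-spondins that defines the dividing stem cells of the crypt base, was measured at 4.76 to 5.86 over all arrays. In segment 1 its log2 levels were 5.29, 4.97 and 5.34 in the wild-type and 5.19, 4.88 and 5.39 in the Amacr-/- arrays. Segments 2 and 3 ran from 5.0 to 5.81 in the wild-type and from 4.76 to 5.64 in the Amacr-/- arrays. In segment 4 the levels were 5.37, 5.76 and 5.46 against 5.76, 5.86 and 5.62. Within each genotype the arrays of segment 4 lay above those of segment 1, in wild-type mice by a narrow margin. The difference was 0.33 (SE 0.19, limma adjusted p = 0.243) in wild-type and 0.59 (SE 0.19, limma adjusted p = 0.0228) in Amacr-/- mice, so it was called in the latter. That call was lost without Amacr-/- segment 1 replicate 2 (0.46, limma adjusted p = 0.125), segment 4 replicate 1 (0.59, limma adjusted p = 0.0577) or segment 4 replicate 2 (0.54, limma adjusted p = 0.0829). With the marker means of fat, smooth muscle and pancreas as covariates, the wild-type difference was 0.60 (limma adjusted p = 0.0259), and with array weights it was 0.52 (0.0116), while over all alternatives its adjusted p ran up to 0.560.

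Smoc2 encodes a secreted calcium-binding matrix protein enriched in crypt stem cells. Its log2 levels in segment 1 were 5.59, 5.09 and 4.89 in the wild-type and 4.56, 4.82 and 5.57 in the Amacr-/- arrays. In segments 2 and 3 they ran from 4.67 to 5.62 and from 4.99 to 5.48. Segment 4 gave 5.43, 5.88 and 5.21 in the wild-type and 5.59, 5.97 and 5.66 in the Amacr-/- arrays. The wild-type groups all overlapped, while the Amacr-/- arrays of segment 4 lay above those of the other segments. The difference between segments 4 and 1 was 0.32 (SE 0.27, limma adjusted p = 0.458) in wild-type and 0.76 (SE 0.27, limma adjusted p = 0.0397) in Amacr-/- mice. The latter call was lost without any of 5 of its 6 arrays. The value was 0.55 (limma adjusted p = 0.183) without Amacr-/- segment 1 replicate 1 and 0.68 (limma adjusted p = 0.128) without segment 1 replicate 2. Without segment 4 replicate 1, 2 or 3 it was 0.83, 0.64 and 0.80 (limma adjusted p = 0.0558, 0.146 and 0.0639). With the marker means as covariates, the wild-type difference was 0.76 (limma adjusted p = 0.0419), while over all alternatives its adjusted p ran up to 0.828. The Amacr-/- call was also lost with array weights (0.49, limma adjusted p = 0.122) and in the fit of the compared groups alone (0.0555).

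Sox9 encodes a transcription factor of crypt progenitors and Paneth cells and is a Wnt target. Its log2 levels in segment 1 were 5.63, 5.45 and 5.65 in the wild-type and 5.30, 5.72 and 5.71 in the Amacr-/- arrays. In segments 2 and 3 they ran from 5.36 to 5.89 and from 5.29 to 5.80. Segment 4 gave 5.78, 6.10 and 5.81 in the wild-type and 6.13, 6.28 and 6.09 in the Amacr-/- arrays. All 6 arrays of segment 4 lay above all 6 of segment 1. The rise was called in Amacr-/- mice, at 0.59 (SE 0.14, limma adjusted p = 0.00222), and not in wild-type mice, at 0.32 (SE 0.14, limma adjusted p = 0.0983). The Amacr-/- call was kept under every alternative tried, and the wild-type difference passed with array weights (0.45, limma adjusted p = 0.00202), with adjusted p up to 0.357 under the others.

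Ascl2, the transcription factor that sets the stem cell programme of the crypt together with beta-catenin, lay between 3.69 and 3.99 in all 24 arrays. Its group means ran from 3.83 to 3.95, near the low end of the arrays' range. Segment 4 differed from segment 1 by 0.09 (95% interval -0.10 to 0.27) in wild-type and by 0.10 (95% interval -0.09 to 0.29) in Amacr-/- mice. No comparison called it. The normalization compresses low values, and its part in this result was not tested.

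**Figure D2:**
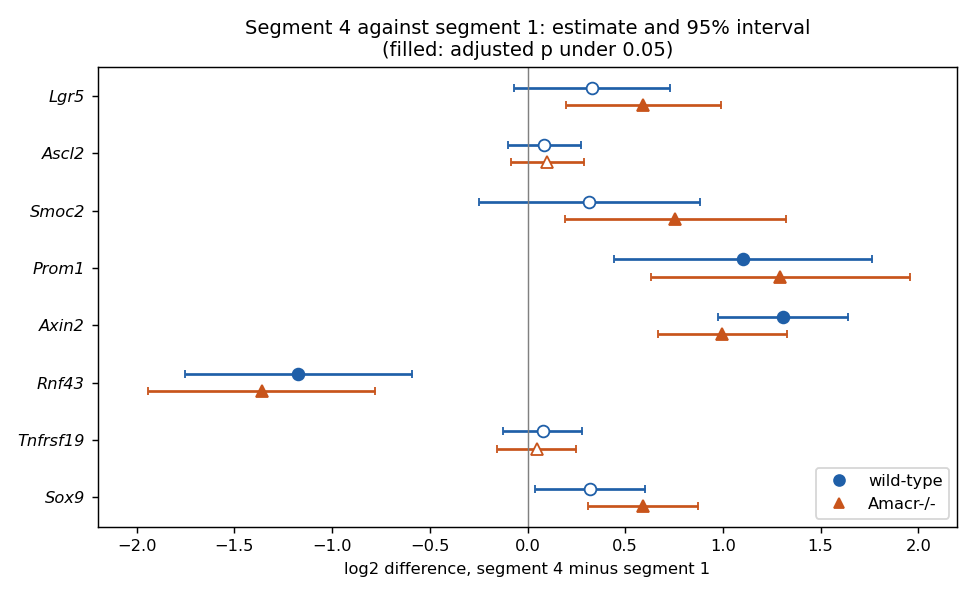
Log2 difference between segment 4 and segment 1 (x axis) for each of the 8 genes (y axis), as the limma estimate with its 95% interval, in wild-type (circles) and Amacr-/- mice (triangles); filled points passed an adjusted p of 0.05. Axin2 and Prom1 lie to the right in both genotypes and Rnf43 to the left, and the intervals of the genotypes overlap for every gene.

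Counted together, segment 4 differed from segment 1 for 3 of the 8 genes in wild-type mice, beside 23.6% of all genes tested, and for 6 of 8 in Amacr-/- mice, beside 30.3%. In each genotype 7 of the 8 differences were positive. Of the positive ones, limma called Axin2 and Prom1 in wild-type mice, and also Sox9, Lgr5 and Smoc2 in Amacr-/- mice. The share of positive differences among all genes was not counted. Their median was 0.32 in wild-type and 0.59 in Amacr-/- mice, whereas the median of all genes was 0.03 and -0.01. A test among all 4 segments called Axin2 (limma adjusted p = 1.55e-05), Rnf43 (0.0133) and Prom1 (0.0143) in wild-type mice, 3 of 8 beside 22.7% of all genes. In Amacr-/- mice it called Axin2 (limma adjusted p = 2.09e-05), Sox9 (0.00245), Rnf43 (0.00308) and Prom1 (0.00983), 4 of 8 beside 28.3%.

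Some of these calls among 4 segments turned on the arrays used. Without the 5 arrays rich in other tissues, Rnf43 was not called in wild-type mice (limma adjusted p = 0.0877), which left 2 of 8 beside 22.2% of all genes. In Amacr-/- mice Lgr5 (limma adjusted p = 0.0222) and Smoc2 (0.0108) were then called too, 6 of 8 beside 24.2%. With the marker means as covariates, Lgr5 (limma adjusted p = 0.0464) took the place of Rnf43 (0.0780) in wild-type mice. The same 6 genes were then called in Amacr-/- mice, beside 26.1% of all genes. Leaving out 1 array ended the wild-type call of Rnf43 (segment 1 replicate 1 or 3, limma adjusted p = 0.0568 and 0.0731) and of Prom1 (segment 4 replicate 1 or 2, limma adjusted p = 0.0995 and 0.0926). It also ended the Amacr-/- call of Prom1 (segment 4 replicate 2, limma adjusted p = 0.0504). Sox9 was called in wild-type mice without segment 3 replicate 1 or 3 (limma adjusted p = 0.0375 and 0.0356), and Smoc2 in Amacr-/- mice without segment 1 replicate 3 (0.0414).

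Between neighbouring segments, few differences passed. In wild-type mice limma called 0 of the 8 genes from segment 1 to 2 (0.884% of all genes), from 2 to 3 (2.06%) and from 3 to 4 (4.5%), and at an unadjusted p under 0.05 it counted 2, 1 and 1. Axin2 gave 0.44, 0.54 and 0.33 over these steps, with limma adjusted p = 0.277, 0.0869 and 0.280. The 3 same-numbered wild-type pairs of segments 2 and 3 deviated together. With the replicate number as a fixed block within genotype, this step was called for Axin2 (0.54, limma adjusted p = 0.0190). It also passed with only the groups compared (limma adjusted p = 0.0419) and with array weights (0.0291). A random replicate block called 0 of the 8 genes for this step. Prom1 gave 0.90 from segment 3 to 4 (limma adjusted p = 0.120), and passed without segment 4 replicate 3 (1.24, limma adjusted p = 0.0268). In Amacr-/- mice Rnf43 fell by 1.10 from segment 1 to 2 (SE 0.28, limma adjusted p = 0.0305), 1 of 8 genes beside 3.62%. Axin2 rose by 0.71 from segment 2 to 3 (SE 0.16, limma adjusted p = 0.0100), 1 of 8 beside 5.62%. From segment 3 to 4, 0 were called beside 3.54%, and 2 had an unadjusted p under 0.05, Lgr5 at 0.56 and Sox9 at 0.46 (limma adjusted p = 0.130 and 0.0727).

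The Amacr-/- calls between neighbours were lost in several fits, mostly at similar differences. With the marker means of other tissues as covariates, the Rnf43 step was -1.02 (limma adjusted p = 0.123) and the Axin2 step 0.56 (0.0896). The Rnf43 call was also lost with the fixed replicate block (limma adjusted p = 0.116). With only the groups compared, the limma adjusted p was 0.165 for Rnf43 and 0.129 for Axin2. Without the 5 arrays with much pancreas, fat or muscle signal, the Rnf43 step was -1.08 (limma adjusted p = 0.160) and the Axin2 step 0.65 (limma adjusted p = 0.144). The Rnf43 step was -0.73 without Amacr-/- segment 1 replicate 2 (limma adjusted p = 0.204) and -1.14 without segment 1 replicate 3 (0.0695). Without segment 2 replicate 1, 2 or 3 it was -1.05, -1.08 and -1.18 (limma adjusted p = 0.0939, 0.0945 and 0.0505). The Axin2 step was 0.64 without segment 2 replicate 1 (limma adjusted p = 0.0565), 0.59 without segment 2 replicate 3 (0.0791) and 0.63 without segment 3 replicate 2 (0.0545). The direction held each time.

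Ordered by group mean, Axin2 ran 1, 2, 3, 4 from low to high in wild-type mice and 1, 2, 4, 3 in Amacr-/- mice. Rnf43 ran 4, 3, 2, 1 in both. Prom1 and Sox9 were lowest in segment 1 or 2 and highest in segment 4. Between consecutively numbered segments, the calls were the Amacr-/- steps of Rnf43 and Axin2 above. The wild-type Axin2 step from segment 2 to 3 passed with the fixed replicate block and not with the random block. The other steps did not pass the test in the fit of all arrays. The random block called Axin2 from segment 1 to 2 (limma adjusted p = 0.0391) and the fixed block Prom1 from segment 2 to 3 (0.0287), both in Amacr-/- mice. Array weights called Axin2 from segment 1 to 2 in wild-type (limma adjusted p = 0.0483) and Amacr-/- mice (0.0404). From segment 3 to 4 they called Prom1 in wild-type (limma adjusted p = 0.00707) and Sox9 in Amacr-/- mice (0.0359). Lgr5 was highest in segment 4 in both genotypes, as was Smoc2.

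Between the genotypes, 0 of the 8 genes were called by limma in any segment, beside 0.111%, 0.0721%, 0.0262% and 0.0655% of all genes in segments 1 to 4. At an unadjusted p under 0.05 the counts were 1, 0, 1 and 0. Over the intestine, on the mean of the 4 segments for each replicate number, 0 of 8 were called beside 0.0262%, and 1 had an unadjusted p under 0.05. A genotype difference that varied by segment was called for 0 of 8 beside 0%, with 0 of the 8 and 907 of all genes at an unadjusted p under 0.05. Leaving out arrays or other settings called 0 members in each segment.

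**Figure D3:**
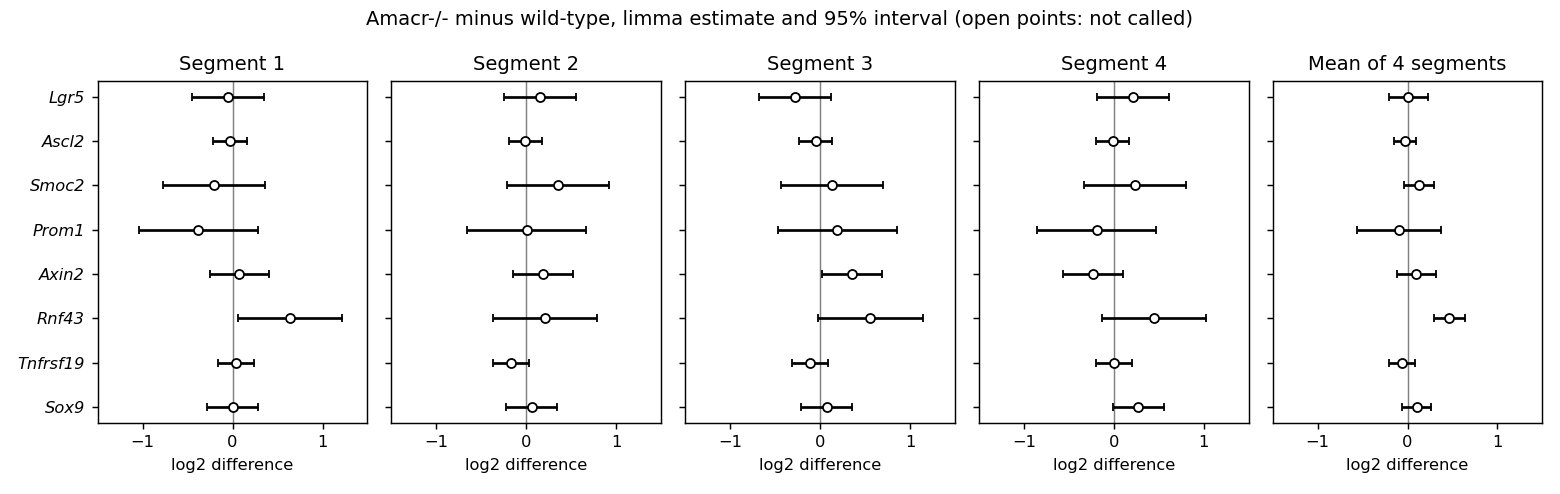
Log2 difference between Amacr-/- and wild-type mice (x axes) for each gene (y axis) in segments 1 to 4 and for the mean of the 4 segments, as the limma estimate with its 95% interval; no point passed an adjusted p of 0.05. Rnf43 lies to the right of 0 in every panel, from 0.21 in segment 2 to 0.64 in segment 1, and the other genes lie on both sides of 0.

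Rnf43 was the gene with the unadjusted counts in segment 1 and over the intestine. It was higher in Amacr-/- mice by 0.64 in segment 1 (SE 0.28, limma adjusted p = 0.390), 0.21 in segment 2 (SE 0.28, limma adjusted p = 0.957), 0.56 in segment 3 (SE 0.28, limma adjusted p = 0.619) and 0.45 in segment 4 (SE 0.28, limma adjusted p = 1.00). Averaged over the 4 segments, its levels were 5.72, 5.88 and 5.94 in wild-type and 6.23, 6.38 and 6.31 in Amacr-/- mice. All 3 Amacr-/- means lay above all 3 wild-type means. The difference was 0.46, 1.38-fold (SE 0.07, 95% interval 0.29 to 0.63), with a limma adjusted p = 0.225 over all genes, so it did not pass. It passed in 2 other fits, with array weights (0.43, limma adjusted p = 0.00948) and with the marker means of other tissues as covariates (0.43, limma adjusted p = 0.0170). These fits called 707 and 231 genes over the intestine in place of 4, and over all alternatives the adjusted p of Rnf43 ran from 0.00948 to 0.945.

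Axin2 in segment 3 was the other, 0.36 higher in Amacr-/- mice (SE 0.16, limma adjusted p = 0.592). Its 3 Amacr-/- arrays lay above the 3 wild-type arrays there, whereas in segment 4 its difference was -0.23 (SE 0.16). For Lgr5 the difference over the intestine was 0.01 (95% interval -0.21 to 0.23), for Sox9 0.10 (95% interval -0.06 to 0.26) and for Smoc2 0.13 (95% interval -0.04 to 0.30). Prom1 gave -0.09 with a wider interval of -0.56 to 0.37. Adjusted p-values for a genotype difference that varied by segment ran from 0.851 for Axin2 to 0.998 for Ascl2, among them 0.897 for Lgr5, 0.939 for Smoc2 and 0.941 for Sox9.

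Other Wnt pathway genes were read from lists chosen with earlier results of these data known. Over all 15267 genes, limma called 1530 higher and 2071 lower in segment 4 than in segment 1 of wild-type mice. In Amacr-/- mice it called 2355 higher and 2278 lower. The list counts below stand beside these, which were 23.6% and 30.3% of all genes in both directions together. Of 20 ligands and R-spondins, 1 was lower in segment 4 than in segment 1 of wild-type mice and 2 in Amacr-/- mice, with 0 higher. Wnt4, a ligand, fell by 0.62 (SE 0.17, limma adjusted p = 0.00942) in wild-type and fell by 0.53 (SE 0.17, limma adjusted p = 0.0208) in Amacr-/- mice. Of 16 receptors and co-receptors, 2 were higher and 1 lower in wild-type and 4 higher and 1 lower in Amacr-/- mice. Lgr4, the R-spondin receptor of crypt and other epithelial cells, rose by 1.19 (SE 0.15, limma adjusted p = 7.60e-06) and by 1.58 (SE 0.15, limma adjusted p = 1.59e-07). The Frizzled receptor Fzd4 fell, with differences of -0.68 and -0.73, and Fzd5, another Frizzled receptor, rose by 0.77 in Amacr-/- mice (SE 0.13, limma adjusted p = 0.000104).

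Of 15 Wnt inhibitors, 1 was higher in wild-type mice (Dkk3) and 1 higher and 1 lower in Amacr-/- mice. Those were Znrf3, the ligase related to Rnf43, which rose by 0.57 (SE 0.10, limma adjusted p = 0.000295), and the secreted inhibitor Dkk4, which fell by 0.48 (SE 0.11, limma adjusted p = 0.00194). In the pathway core, 2 of 15 genes were higher and 2 lower in wild-type mice, and 3 and 3 in Amacr-/- mice. Ctnnb1, which encodes beta-catenin, rose by 0.64 (SE 0.09, limma adjusted p = 1.65e-05) and by 0.62 (SE 0.09, limma adjusted p = 1.96e-05). Dvl1, which relays the signal from Frizzled, fell, with differences of -0.71 and -0.46. The medians of these 4 lists lay between -0.09 and 0.14 in both genotypes, near those of all genes.

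Other Wnt targets also ran both ways. Of 11 measured, 3 were higher and 1 lower in wild-type mice, and 6 and 1 in Amacr-/- mice, with medians of 0.29 and 0.57. Sp5, a transcription factor induced by Wnt that represses Wnt targets, fell by 1.81 (SE 0.21, limma adjusted p = 2.63e-06) in wild-type and fell by 2.32 (SE 0.21, limma adjusted p = 8.39e-08) in Amacr-/- mice, the same direction as Rnf43. Its group means ran from 8.22 to 6.41 in wild-type and from 8.54 to 6.22 in Amacr-/- mice. Cdx1, a homeobox factor of the intestine, rose by 1.18 and 1.75, and Ccnd2, a cyclin of the first phase of the cell cycle, by 1.03 and 1.73.

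Of 14 other intestinal stem cell genes, 3 were higher and 1 lower in wild-type and 7 higher and 2 lower in Amacr-/- mice. Hopx, a homeodomain protein used as a marker of slowly cycling crypt cells and also made in villus cells, fell by 1.24 (SE 0.16, limma adjusted p = 5.78e-06) in wild-type and fell by 1.43 (SE 0.16, limma adjusted p = 6.88e-07) in Amacr-/- mice. Bmi1, a Polycomb protein used as a marker of the same cells, rose by 0.68 and 0.98. Slc12a2, an ion transporter of crypt cells, rose by 1.67 (SE 0.56, limma adjusted p = 0.0360) and by 2.83 (SE 0.56, limma adjusted p = 0.000625).

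Notch and BMP signals shape the same crypts. Of 15 Notch genes, 1 was higher and 1 lower in wild-type mice, and 4 and 1 in Amacr-/- mice. Over all genes, 23.6% and 30.3% were called in both directions together. Atoh1, the factor that starts the secretory lineage, rose by 0.95 and 1.08, and the ligand Dll1 fell, with differences of -0.86 and -0.89. Of 15 BMP genes, 2 were higher in wild-type mice and 4 higher and 1 lower in Amacr-/- mice. Bmp2, a ligand of the villus, rose by 1.34 and 1.68, and Id1, a BMP target, by 0.59 and 0.84. Between the genotypes over the intestine, 0 genes of any of these 8 lists were called.

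**Figure D4:**
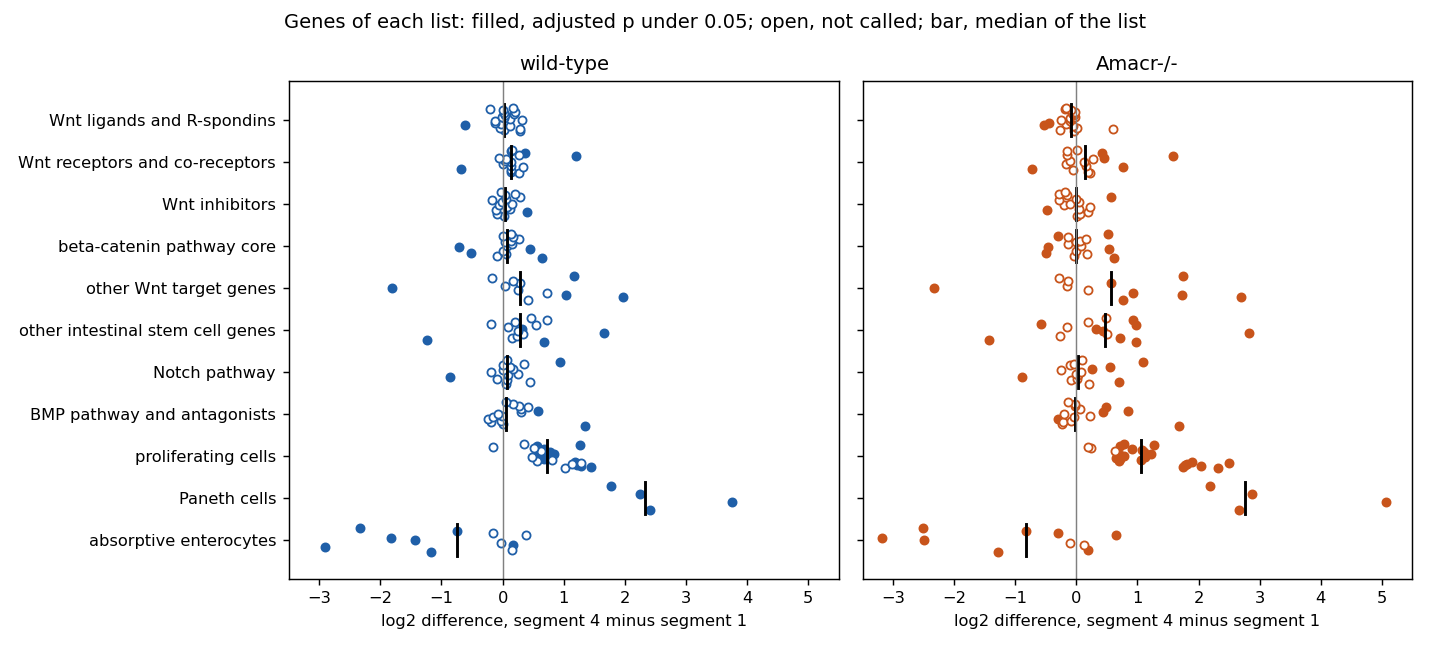
Log2 difference between segment 4 and segment 1 (x axes) for each measured gene of 8 pathway lists and 3 lists of cell markers (y axis), in wild-type (left) and Amacr-/- mice (right); filled points passed an adjusted p of 0.05, and bars are list medians. The proliferating cell genes lie almost all to the right of 0, and the Wnt lists hold filled points on both sides.

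Several lists of cell markers were, like Axin2 and Prom1, higher in segment 4 than in segment 1. Axin2 and the proliferating cell list differed in direction at some steps. From wild-type segment 1 to 2, the mean of the proliferating cell list fell from 6.24 to 5.81, while Axin2 rose from 7.03 to 7.47. From Amacr-/- segment 3 to 4 that mean rose from 6.35 to 7.01, while Axin2 fell from 8.37 to 8.11. At the remaining steps both rose. Prom1 changed in the same direction as that mean at every step, and Rnf43 fell at every step. In wild-type segments 1 to 4, Prom1 averaged 9.05, 8.78, 9.26 and 10.16, and the list 6.24, 5.81, 6.22 and 7.04. In Amacr-/- segments 1 to 4, Prom1 averaged 8.67, 8.79, 9.45 and 9.97, and the list 5.84, 5.93, 6.35 and 7.01. Of 24 proliferating cell genes, 14 were higher in segment 4 than in segment 1 of wild-type and 21 of Amacr-/- mice. None were lower, and the medians were 0.72 and 1.07. Over all 15267 genes, 1530 were called higher in wild-type and 2355 in Amacr-/- mice. The mean of that list ran from 5.74 to 6.73 in wild-type segment 1, from 5.60 to 6.20 in Amacr-/- segment 1, and from 6.71 to 7.33 in the 6 arrays of segment 4. All 4 measured Paneth cell genes, of 16 listed, were higher in both genotypes, by a median of 2.33 and 2.76. Of 9 goblet cell genes, 8 and 7 were higher, and of 9 general epithelial genes, 7 and 8.

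Absorptive enterocyte genes ran the other way, with 6 of 11 lower and 1 higher in wild-type mice and 7 lower and 2 higher in Amacr-/- mice. Exocrine pancreas genes were lower for 3 of 11 and 1 of 11, and T cell genes for 5 of 8 and 6 of 8. Over all 15267 genes, 2071 were called lower in wild-type and 2278 in Amacr-/- mice. The mean of 7 B cell and plasma cell genes was 6.70 to 7.48 in wild-type segment 1 and 7.57 to 8.74 in segment 4. In Amacr-/- mice it was 6.49 to 7.06 and 7.14 to 8.43. The test among 4 segments called 2 and 1 of these 7 genes, beside 22.7% and 28.3% of all genes. B cell signal was not a covariate, and arrays were not left out for it. The hormone genes Cck and Gip fell in wild-type mice, with differences of -2.89 and -2.67, and Nts and Pyy rose by 3.38 and 2.48. The part of these cell types in the results for the 8 genes was not tested. With the marker means of fat, smooth muscle and pancreas as covariates, and without the 5 arrays high in them, Axin2, Rnf43 and Prom1 were still called between segments 1 and 4 in both genotypes.

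**Figure D5:**
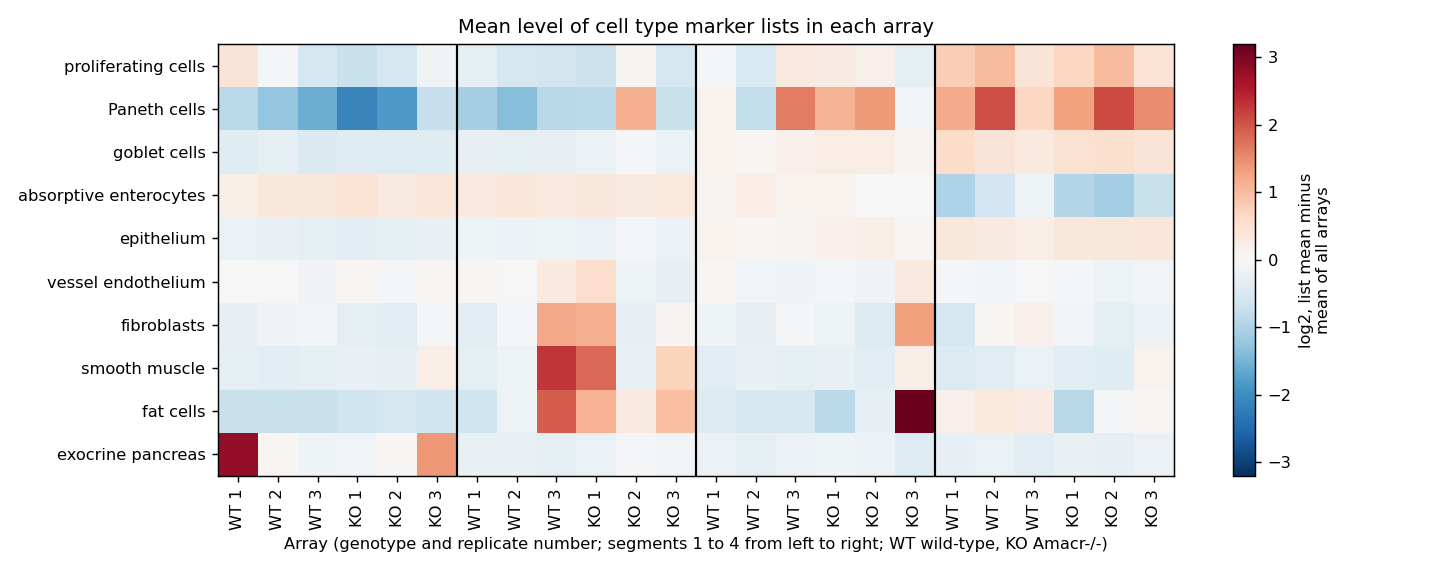
Mean log2 level of each marker list (rows) in each of the 24 arrays (columns, by segment, genotype and replicate number), as the difference from the mean of all arrays (colour). Proliferating, Paneth and goblet cell lists are highest in segment 4, and single arrays stand out for pancreas (2.81 in wild-type segment 1 replicate 1) and fat (3.15 in Amacr-/- segment 3 replicate 3).

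The genes whose levels were most like each member over the 24 arrays were listed by Pearson correlation, as a description, since arrays share segments and genotypes. Axin2 was most like Mtm1 (r = 0.960), Atp8b1 (0.947) and Tmem38b (0.939). Prom1 was most like Ddx39a (r = 0.959), the mitotic kinase gene Aurkb (0.950) and Hgh1 (0.949). Sox9 was most like Dgkz (r = 0.900), Cdca5 (0.894) and Cdca4 (0.892). The second of these, Cdca5, encodes sororin, which holds sister chromatids together.

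Rnf43 was most like Ptpa (r = 0.903), the forkhead factor gene Foxq1 (0.903) and Hinfp (0.898). Smoc2 was most like the noncoding Snhg1 (r = 0.893), Lrig1 (0.878), an inhibitor of ErbB receptors that also marks intestinal stem cells, and Utp14a (0.863). For Lgr5 the highest values were lower, with Syncrip (r = 0.814), P2ry6 (0.791) and Gca (0.769). The flat genes Ascl2 and Tnfrsf19 were most like Mrps22 (r = 0.828), Map2k6 (0.813) and Depdc1b (0.800), and Slc18a3 (r = 0.875), Mmel1 (0.847) and Ccsap (0.844).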

How the data were processed

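Biotin-labelled total RNA of 24 samples was hybridised to one-colour arrays, per the labels' protocols. The authors deposited RMA values, named so in the submitters' processing notes and read here as log2; RMA quantile-normalizes arrays and compresses low values, and the log base is not stated. Of 16556 probe sets, 15270 named 1 gene, and 15267 genes remained after the higher of 2 probe sets was kept for 3 genes. Array medians were 6.06 to 6.16, arrays of a group correlated at 0.979 to 0.995, and 3 arrays per group limit the precision of every value. P-values rest on the spread between arrays within groups. The main tests of segments took all arrays as independent, although arrays of different segments may come from the same mouse.

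limma 3.58.1 under R 4.3.3 fitted all genes with lmFit and eBayes (8 group means, 16 residual degrees of freedom), with Benjamini-Hochberg adjustment over all genes and calls at 0.05. Differences among segments, and genotype differences that vary by segment, used moderated F tests. The genotype difference over the intestine used the mean of 4 segments per replicate number, which assumes that a number marks 1 mouse within a genotype; the labels do not state it. Deviations from group means were checked for each pair of segments within a genotype, and all 3 same-numbered pairs correlated over 0.1 in 1 of 12 cases, wild-type segments 2 and 3 (0.376 to 0.521). The 9 members, the pathway lists and the marker lists were chosen with earlier results of these data known. The text names every member, up to 4 called genes per list with the smallest adjusted p, and the 3 genes most like each member; Epcam, Vil1, Pecam1 and Cdh5 check the label. Clone and predicted-gene names were passed over among the last. Lists are given as counts and medians without a test.

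Promoters came from a RefSeq table of GRCm38.p6. Alternatives were median centring, quantile normalization, a dim filter at 5, a trended robust prior, array weights, only the groups compared, replicate blocks, marker means of other tissues as covariates, leaving out the 5 arrays high in them, and leaving out each array.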

Additional observations from a re-analysis of the deposited data

How the results depend on the processing

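Counts of the 8 genes called moved as follows. Array weights, an estimate that ended short of convergence, also raised the share of all genes called in each comparison named here but segment 1 to 2 in Amacr-/- mice. They gave 5 in place of 3 among segments in wild-type mice (39.6% of all genes in place of 22.7%) and for segment 4 against 1 there (34.9% in place of 23.6%). They gave 1 in place of 0 for each wild-type step between neighbours (2.91%, 4.42% and 14.1% of all genes), for segment 3 to 4 in Amacr-/- mice (7.04%) and for the genotype difference over the intestine (4.63%). In Amacr-/- mice they gave 2 in place of 1 from segment 1 to 2 (3.54%), 5 in place of 4 among segments (35.6%) and 5 in place of 6 for segment 4 against 1. With marker means of other tissues as covariates, 5 in place of 3 were called for segment 4 against 1 in wild-type mice (21.7% of all genes). These covariates gave 6 in place of 4 among segments in Amacr-/- mice (26.1%). For the genotype difference over the intestine they gave 1 in place of 0 (1.51%). Without the 5 arrays, 2 in place of 3 were called among segments in wild-type (22.2%) and 6 in place of 4 in Amacr-/- mice (24.2%). In Amacr-/- mice, 0 in place of 1 were called from segment 1 to 2 and from segment 2 to 3 in each of 3 settings. These were the covariates (2.58% and 3.35% of all genes), leaving out the 5 arrays (1.95% and 1.57%), and only the groups compared (0.904% and 1.27%). The last setting gave 1 in place of 0 from segment 2 to 3 in wild-type mice (0.838%). For segment 4 against 1 it gave 2 in place of 3 in wild-type (21.1%) and 5 in place of 6 in Amacr-/- mice (27.3%). With 1 array left out, counts ranged from 0 to 1 for segment 3 to 4 in wild-type, from 0 to 2 for segment 1 to 2 in Amacr-/- and from 0 to 1 for segment 2 to 3 in Amacr-/- mice. They ranged from 2 to 4 among segments and from 2 to 3 for segment 4 against 1 in wild-type mice, and from 3 to 5 and from 4 to 6 in Amacr-/- mice.

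With a replicate block fixed within genotype, 1 was called from segment 2 to 3 in wild-type mice (2.87% of all genes). In Amacr-/- mice, 0 were called from segment 1 to 2 (2.43%) and 2 from segment 2 to 3 (4.65%). With a random replicate block, 2 were called from segment 1 to 2 in Amacr-/- mice (4.9%). Among segments it called 4 in place of 3 in wild-type (26.1%) and 5 in place of 4 in Amacr-/- mice (30.9%). Same-numbered arrays deviated together (correlation over 0.1) in 15 of 36 pairs within genotypes and 2 of 12 across. Replicate 1 of the wild-type stood out, at 0.387 to 0.521 in all 6 of its pairs of segments. The replicate block changed no other count of the 8 genes. Median centring, renewed quantile normalization, the filter on dim genes, which left 6 of the 8, and the trended prior changed no count either. For the mean over the intestine without the 5 arrays, values were centred on each segment's mean before the remaining segments were averaged. In segments 1, 2, 3 and 4 the genotype comparison called 17, 11, 4 and 10 of all genes, against 349, 14, 8 and 127 with array weights and 3, 1, 0 and 3 with only the groups compared and 0, 0, 0 and 5 with a replicate block across genotypes, and over the intestine it called 4 against 223 on all arrays. No call reversed its direction. Causes were not tested.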
